A study of Homo sapiens with 18 samples.

Results

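The genes described here encode proteins of the mitochondrial ribosome, 27 of its small subunit (MRPS symbols) and 48 of its large subunit (MRPL symbols), out of 10717 genes tested. Ribosome proteins with other symbols fell outside the rule. They were taken as probe sets annotated with exactly 1 symbol that starts with MRPS or MRPL and a digit, with the brightest probe set standing for each gene and a highest group mean of at least 4 on the log2 scale. The rule found 142 probe sets of 77 symbols. The pseudogene MRPL45P2 did not reach the level filter, and the antisense RNA MRPL20-AS1, which encodes no ribosomal protein, was set apart, which left 75 protein genes. MRPS24 and MRPL53, present only on probe sets shared with other genes, were not analysed here.

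RNA came from HK-2, a single immortalized cell line from the proximal tubule epithelium of a human kidney. The groups were cells exposed to CsA and cells given its vehicle (control), sampled after 12, 24 and 48 h. Each of these 6 groups had 3 biological replicates, with 1 Affymetrix array per replicate. CsA is the usual abbreviation of cyclosporin A, a calcineurin inhibitor, although the labels do not spell it out or give its dose. The study looked for expression signatures of kidney toxicity, and these 18 arrays ask what CsA changes at each time.

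The mitochondrial ribosome translates the few messenger RNAs made from mitochondrial DNA, all of which encode membrane subunits of the respiratory chain and ATP synthase. Its RNAs are made in the mitochondrion, whereas its proteins are encoded in the nucleus, translated in the cytosol and imported. Many of these proteins descend from the bacterial ribosome, and the rest are found only in mitochondria. Proximal tubule cells are rich in mitochondria. MRPS18A and MRPS30 are named for the small subunit although they sit in the large one, and they were counted by symbol.

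Array medians lay between 2.86 and 2.92, and 38.2% to 39.1% of probe sets reached 4 on each array. Of 11 proximal tubule markers measured, only GATM reached 4 in any group, and 10, among them LRP2, CUBN and AQP1, stayed below it. Of 7 epithelial markers 6 reached 4. None of the 5 endothelial and 3 leukocyte markers measured did, whereas 4 of 6 fibroblast genes did (COL1A1, COL3A1, DCN and LUM). No arrays held identical values. Replicate 3 lay apart from the others across the whole series, and same-numbered arrays deviated together. Fits were therefore made without and with the replicate number as a block, and a call that needed the block is marked as such.

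Values below are log2 GCRMA values, and a difference is CsA minus control unless another direction is named, printed with the standard error of the fit without the block. A gene is said to have risen or fallen only when limma's adjusted p (Benjamini-Hochberg over all genes tested) was under 0.05. These p-values measure the spread between cultures of 1 line. In a bulk culture, fewer cells that hold a transcript and less of it in each cell cannot be told apart.

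**Figure D1:**
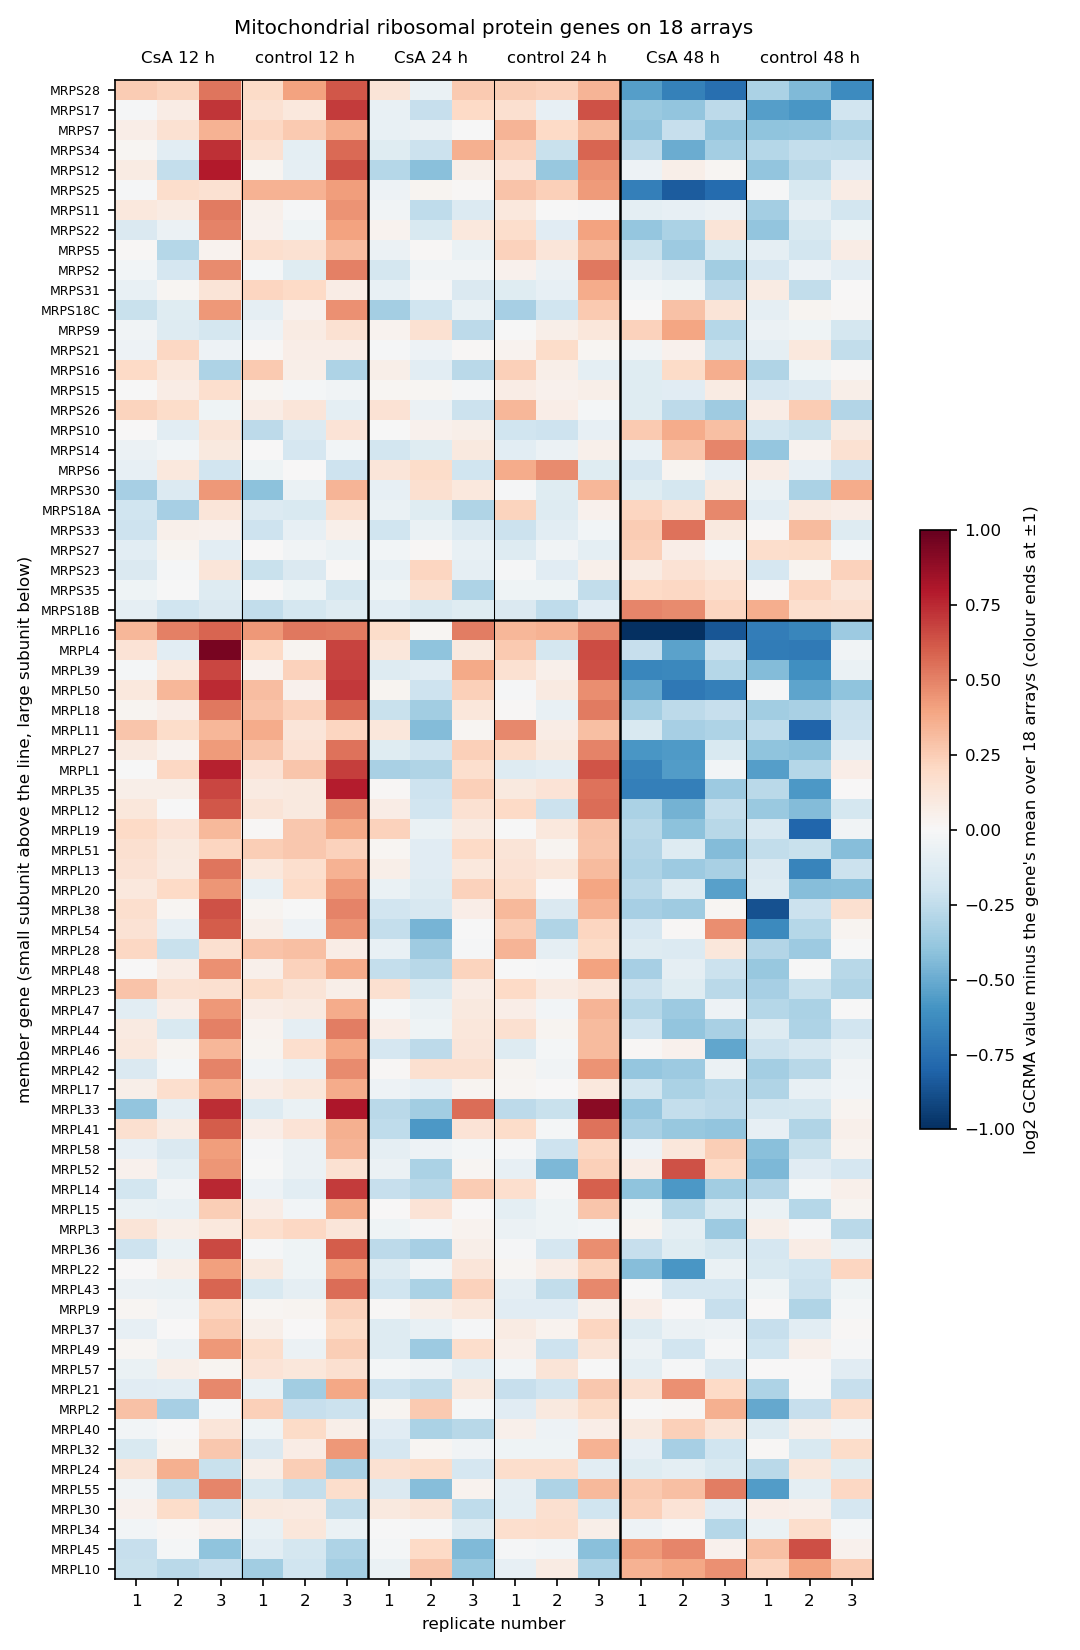
Each row is 1 of 75 genes and each column 1 array, grouped by time with CsA left of control; colour is the log2 GCRMA value minus that gene's mean over 18 arrays. Most large-subunit rows are red at 12 h, strongest in replicate 3, and blue at 48 h under both treatments, whereas MRPL10, MRPL45 and MRPS18B run the other way.

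At 12 h the members were as likely to be lower as higher in CsA cells. The difference was negative for 38 of 75 genes, with a median of -0.0026, against -0.010 over all genes tested. No member passed the test, and 0% of all genes did. An unadjusted limma p under 0.05 was found for 2 of 75 members and for 98 of all 10717 genes. Small-subunit genes had a median of -0.0045 and large-subunit genes one of -0.0012. The medians within the 3 replicate pairs were -0.047, -0.036 and 0.042.

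At 24 h most members were lower in CsA cells, each by a small amount. The difference was negative for 63 of 75 genes, and the median was -0.15, against -0.0083 over all genes tested. From the group means the median was -0.16 for the small subunit and -0.15 for the large one. Within the pairs the small-minus-large gap was -0.012, 0.11 and 0.024, and without CsA replicate 3 of 24 h the gap from the group means was 0.11, against -0.0069 with all arrays. Within the replicate pairs the member medians were -0.11, -0.11 and -0.22, and 58, 51 and 68 of the 75 genes were lower. In all 3 pairs 43 of 75 genes (57.3%) were lower, against 23.3% of all genes tested, and 4 were higher in all 3. Other probe sets of the same genes followed less closely: of 43 that reached 4, 25 had the sign of the brightest one at 24 h, and 36 at 48 h.

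None of these single differences passed limma's test at 24 h, where 0% of all genes passed without the block and 0.00933% with it. Unadjusted limma p-values under 0.05 numbered 6 of 75 without the block and 15 with it, against 406 and 1009 of all 10717 genes. The smallest adjusted p of a member was 0.237, with the block. All 3 CsA arrays lay below all 3 control arrays for 10 of 75 genes (5.12% of all genes tested), and above them for 1 gene, MRPS10 (4.57% of all genes tested). The 10 genes, listed after their values were seen, were MRPS5, MRPS7, MRPS11, MRPS15, MRPS21, MRPS25, MRPL13, MRPL34, MRPL37 and MRPL40. Between subunits, 6 of the 10 belonged to the small one.

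MRPS7, a protein of the head of the small subunit, shows the size of these shifts. It read 9.69, 9.70 and 9.75 in CsA cells at 24 h, against 10.10, 9.96 and 10.07 in control cells (difference -0.33 ± 0.09, adjusted p = 0.244 with the block). MRPL40, a protein of the large subunit's central protuberance, read 10.19, 9.99 and 10.02 in CsA cells, against 10.35, 10.25 and 10.37 in control cells. Neither gene's groups overlapped. MRPL41, found only in mitochondria, had the lowest difference of the members, -0.47 ± 0.19, with 10.32, 10.01 and 10.71 in CsA cells against 10.77, 10.56 and 11.12 in control cells. Its groups overlapped, since replicate 3 was highest under both treatments, but CsA was lower within each pair.

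The 24 h median rested partly on 1 array. Without control replicate 3 it was -0.052, and without CsA replicate 2 it was -0.094; leaving out all arrays of replicate 3 gave -0.12. The 60 cytosolic ribosomal protein genes tested had a median of 0.0025 at 24 h, with 30 of 60 lower. Other mitochondrial lists were mostly lower in CsA cells at 24 h, so the lean was not particular to the members. Lower were 19 of 25 assembly and rRNA modification factors (median -0.11) and 9 of 12 mitochondrial translation factors (-0.062). So were 14 of 17 genes of mitochondrial DNA and RNA upkeep (-0.095). Of 9 regulators of nuclear genes for mitochondria, 7 were higher (0.11). The difference between the 3-prime and 5-prime ACTB probe sets, a sign of RNA degradation, was 0.76, 0.88 and 0.80 in CsA cells at 24 h, against 0.67, 0.93 and 0.78 in control cells; its part in the result was not tested.

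**Figure D2:**
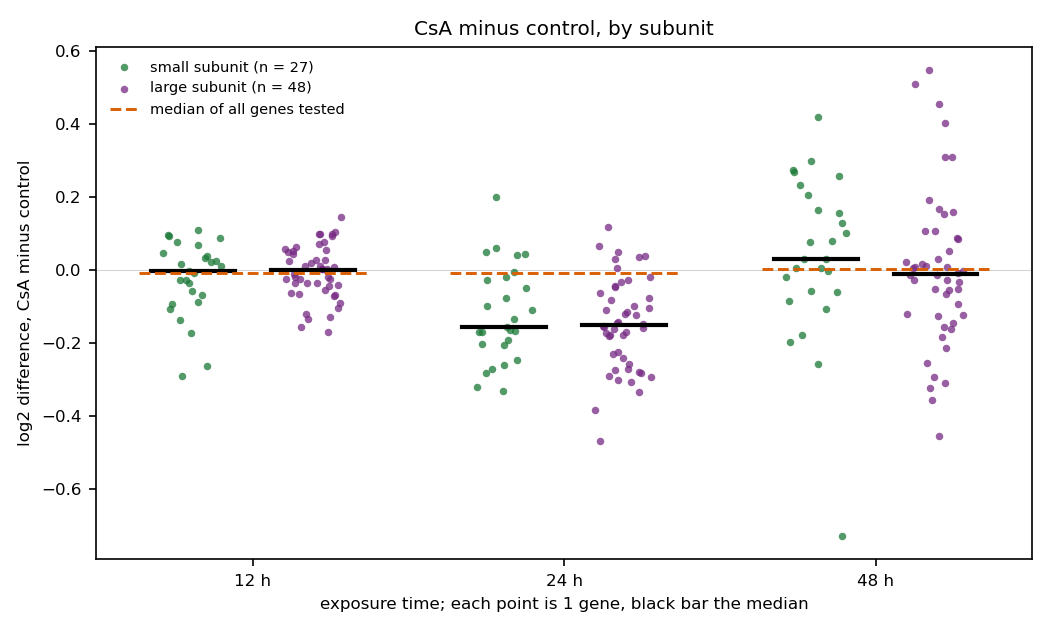
Each point is the CsA minus control difference (log2) of 1 gene, with small-subunit genes left of large-subunit genes at 12, 24 and 48 h; black bars are medians and the dashed line is the median of all genes tested. The medians lie near 0 at 12 and 48 h and at -0.16 and -0.15 at 24 h, and the lowest point at 48 h is MRPS25.

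At 48 h the members no longer leaned one way, but they spread further apart. The difference was negative for 36 of 75 genes, the median was 0.0047, and single genes ran between -0.73 and 0.55. The small subunit had a median of 0.030 with 10 of 27 genes lower, and the large subunit one of -0.013 with 26 of 48 lower. The small-minus-large gap was 0.042 from the group means, and 0.051, 0.13 and 0.12 within the 3 pairs. From the group means the gap at 12 h was -0.0033.

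MRPS25, a small-subunit protein with no bacterial counterpart, fell at 48 h. It read 7.94, 7.79 and 7.85 in CsA cells and 8.61, 8.47 and 8.69 in control cells. The groups were apart, and the difference was -0.73 ± 0.09 (limma, adjusted p = 0.0037, and 0.00178 with the block). It was the only member past the test without the block, where 0.224% of all genes fell and 0.215% rose. The 24 h arrays differed in the same direction, with 8.56, 8.65 and 8.63 in CsA cells against 8.91, 8.86 and 9.04 in control cells (-0.32 ± 0.09). At 12 h they read 8.60, 8.79 and 8.77 in CsA cells against 8.96, 8.97 and 9.04 in control cells (-0.27 ± 0.09), again with no overlap.

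Averaged over the 3 times, MRPS25 fell by 0.44 on the log2 scale (limma, adjusted p = 0.00381). It was the only member called in the average without the block, where 0.00933% of all genes fell and 0.0746% rose. This call was lost without replicate 1, 2 or 3 in all groups (adjusted p = 0.276, 0.355 and 0.058), and with the block it was lost without replicate 2 (0.103) and without replicate 3 (0.05 after rounding). The result rests on its brightest probe set. A dimmer probe set of MRPS25, with a highest group mean of 5.94, differed by -0.16 at 48 h, 0.42 at 24 h and 0.33 at 12 h. Another, with a highest group mean of 4.44, differed by -0.33 at 48 h, -0.019 at 24 h and 0.075 at 12 h. With the probe sets averaged, limma gave -0.40 at 48 h (adjusted p = 0.136 without the block and 0.0256 with it) and -0.11 in the average (0.632 without the block and 0.281 with it). Without all arrays of replicate 1 the call at 48 h was lost (adjusted p = 0.164), as it was without those of replicate 2 (0.218, and 0.0533 with the block).

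With the replicate block, 3 members fell and 2 rose at 48 h, against 5.96% of all genes that fell and 4.8% that rose. Besides MRPS25, MRPL16 and MRPL22 fell, and MRPS10 and MRPL55 rose. MRPL16 is a protein of the large subunit's core near the tRNA-binding sites, and MRPL22 lines the tunnel through which the new chain leaves. MRPS10 belongs to the head of the small subunit, and MRPL55 to the central protuberance of the large one.

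MRPL16 read 7.37, 7.22 and 7.55 in CsA cells at 48 h, against 7.72, 7.76 and 8.04 in control cells (difference -0.46 ± 0.14, adjusted p = 0.016 with the block and 0.123 without it). All CsA arrays were below all control arrays. MRPL22 read 10.03, 9.88 and 10.39 in CsA cells, against 10.31, 10.26 and 10.67 in control cells (-0.31 ± 0.17, adjusted p = 0.0422 with the block and 0.398 without it). Its groups overlapped, because replicate 3 read highest under each treatment. In 16 of 21 fits that left out 1 array or 1 replicate number the MRPL22 call was lost.

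MRPS10 read 10.52, 10.64 and 10.56 in CsA cells at 48 h, against 10.08, 10.04 and 10.35 in control cells (0.42 ± 0.12, adjusted p = 0.0193 with the block and 0.104 without it). Its 2 other probe sets were higher in CsA cells too, by 0.35 and 0.36. MRPL55 read 8.29, 8.32 and 8.54 in CsA cells, against 7.47, 7.93 and 8.24 in control cells (0.51 ± 0.23, adjusted p = 0.0329 with the block and 0.298 without it). Neither gene's groups overlapped. The MRPL55 control arrays spread over a wider range than its CsA arrays, and without control replicate 1 its difference was 0.33 and the call was lost (adjusted p = 0.141 with the block). The calls of MRPL16 and MRPS10 were each lost in 5 of 21 such fits, and that of MRPL55 in 6.

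**Figure D3:**
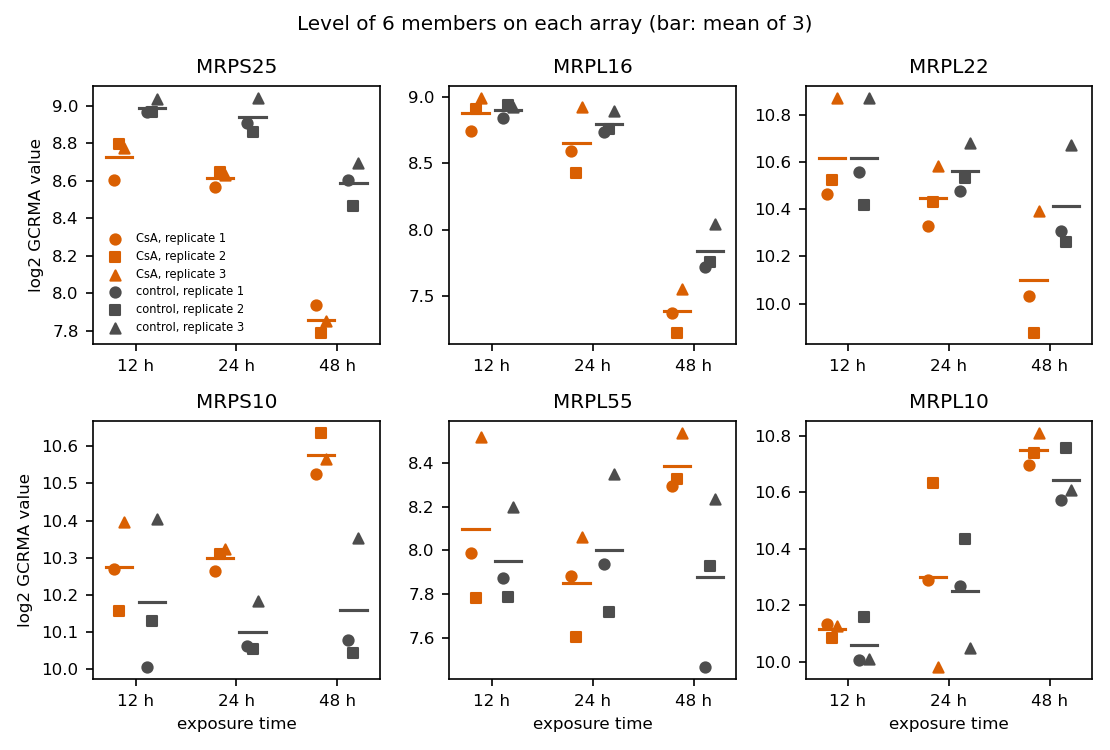
Log2 GCRMA value (vertical axis) of 6 members by time, with CsA in orange left of control in grey, markers for replicates 1, 2 and 3, and bars for means of 3 arrays. MRPS25 lies lower in CsA cells at every time, MRPS10 and MRPL55 lie higher in CsA cells at 48 h with no overlap, and MRPL10 is higher at 48 h than at 12 h under both treatments.

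Across all 75 members at 48 h, the 3 CsA arrays lay below the 3 control arrays for 5 genes (6.77% of all genes tested) and above them for 7 (8.25% of all genes tested), shares close to those of all genes. The 5 lower genes were MRPS25, MRPL14, MRPL16, MRPL33 and MRPL41. The 7 higher genes, chosen for naming after their values were seen, were MRPS10, MRPS12, MRPS18A, MRPL21, MRPL40, MRPL52 and MRPL55. MRPL52 had the highest difference of all members. It read 9.84, 10.40 and 9.97 in CsA cells, against 9.31, 9.65 and 9.60 in control cells (0.55 ± 0.20, adjusted p = 0.0650 with the block).

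Whether roles differ at 48 h was not tested. In the small subunit, MRPS12, a protein of the decoding centre, differed by 0.27 ± 0.26, MRPS2 by -0.09 ± 0.20 and MRPS7 by 0.03 ± 0.09. Among the mitochondria-only proteins of that subunit, MRPS22 differed by 0.005 ± 0.20 and MRPS27 by -0.02 ± 0.09. The 3 paralogs of the bacterial S18 protein differed by 0.27 ± 0.15 (MRPS18A), 0.16 ± 0.10 (MRPS18B) and 0.16 ± 0.19 (MRPS18C). None of these 8 genes passed the test with or without the block.

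In the large subunit, the 9 tested proteins of the central protuberance had a median of 0.088 at 48 h, with 7 of 9 higher. In 3 of them (MRPL40, MRPL52 and MRPL55) all CsA arrays lay above all control arrays, as in 8.25% of all genes tested. Roles were assigned after values had been seen, so this count is a description only. MRPL58, a peptidyl-tRNA hydrolase, differed by 0.31 ± 0.17. The 9 central protuberance genes were all lower at 24 h, with a median of -0.23. The stalk that recruits translation factors gave differences of 0.10 ± 0.14 for MRPL10, 0.16 ± 0.17 for MRPL11 and -0.02 ± 0.20 for MRPL12 at 48 h. At the tunnel exit, MRPL23, MRPL24, MRPL45 and MRPL47 lay between -0.030 and 0.083, and only MRPL22 fell, with the block. MRPL1, MRPL3, MRPL42 and MRPL44 differed by -0.16 ± 0.27, -0.07 ± 0.11, -0.06 ± 0.19 and -0.09 ± 0.17.

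Members of bacterial descent (47 genes) had medians of 0.0002, -0.16 and 0.0088 at 12, 24 and 48 h. Those found only in mitochondria (28 genes) had medians of -0.0080, -0.14 and -0.013. Both classes had their lowest median at 24 h.

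In the average over times with the block, MRPS5 and MRPL27 fell along with MRPS25, and MRPS10 rose, against 2.5% of all genes that fell and 2.11% that rose. MRPS5, from the bacterial S5 family, read 9.66, 9.36 and 9.68 in CsA cells at 12 h, against 9.82, 9.80 and 9.96 in control cells. At 24 h it read 9.59, 9.66 and 9.58 in CsA cells, against 9.88, 9.77 and 9.96 in control cells. Both times had no overlap, and the average difference was -0.24 ± 0.06 (adjusted p = 0.023 with the block and 0.141 without it). MRPL27 averaged a difference of -0.18 ± 0.10 (adjusted p = 0.0295 with the block and 0.520 without it), and MRPS10 one of 0.24 ± 0.07 (0.0321 with the block and 0.164 without it). These 3 calls were lost in 8, 14 and 13 of 21 fits that left arrays out. The 6 fibroblast genes, of which 4 reached 4, had a summed log2 mean of 33.5 in CsA cells at 48 h against 36.0 in control cells. The epithelial sum was 69.2 against 67.4, and the proximal tubule sum, mostly of genes below 4, was 32.2 against 33.7. The part of these markers in the 48 h and average results was not tested.

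A test of whether the CsA effect differs between the times called 0 of 75 members, without or with the block, against 0.0373% and 0.028% of all genes (moderated F). Unadjusted p-values of this F test under 0.05 numbered 3 of 75 without the block and 8 with it, against 372 and 1121 of all 10717 genes. The lower level at 24 h is therefore not shown to differ, gene by gene, from the levels at 12 or 48 h.

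Sequence upstream of the start sites is shown for the 5 members called at 48 h and for MRPL17, the only member with the full palindromic NRF1 letters. Each stretch holds the 150 bases before the first RefSeq start (GRCh38.p14), 5′ to 3′ on the gene's strand. Capitals mark a searched motif, the ETS letters in MRPS10 and the NRF1 letters in MRPL17.
MRPS25: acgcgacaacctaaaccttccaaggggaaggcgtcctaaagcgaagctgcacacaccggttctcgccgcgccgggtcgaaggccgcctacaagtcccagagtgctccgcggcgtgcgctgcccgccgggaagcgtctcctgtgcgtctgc
MRPL16: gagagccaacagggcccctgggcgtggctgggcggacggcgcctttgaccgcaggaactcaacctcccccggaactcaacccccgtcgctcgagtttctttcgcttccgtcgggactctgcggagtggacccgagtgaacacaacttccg
MRPL22: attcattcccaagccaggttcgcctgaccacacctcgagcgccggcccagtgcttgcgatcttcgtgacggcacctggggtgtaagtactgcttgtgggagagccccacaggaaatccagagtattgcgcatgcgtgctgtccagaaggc
MRPS10: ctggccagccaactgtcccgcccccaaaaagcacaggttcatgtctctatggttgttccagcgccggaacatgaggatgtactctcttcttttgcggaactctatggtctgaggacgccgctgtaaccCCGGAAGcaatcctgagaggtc
MRPL55: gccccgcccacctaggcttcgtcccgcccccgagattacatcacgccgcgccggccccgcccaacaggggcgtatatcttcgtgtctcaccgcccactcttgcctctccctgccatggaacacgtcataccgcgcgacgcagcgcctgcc
MRPL17: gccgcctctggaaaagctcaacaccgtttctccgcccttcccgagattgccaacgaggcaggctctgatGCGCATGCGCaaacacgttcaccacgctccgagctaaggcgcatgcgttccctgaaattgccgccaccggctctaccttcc
The stretches lie at chr3:15065316-15065465 (minus strand) for MRPS25, chr11:59810779-59810928 (minus) for MRPL16 and chr5:154940923-154941072 (plus) for MRPL22. Those of MRPS10, MRPL55 and MRPL17 lie at chr6:42217862-42218011, chr1:228109300-228109449 and chr11:6683341-6683490, all on the minus strand. Their GC content runs between 55.3% (MRPS10) and 68.7% (MRPL55). Motifs were searched on both strands in windows of 250 bases before to 50 after the start, for the 67 of 75 members in the promoter table. Those not matched were MRPL2, MRPL10, MRPL13, MRPL15, MRPL21, MRPL23, MRPL35 and MRPS28.

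The ETS core CCGGAAG, read by the GABP factor, was in 28 of 67 member promoters (41.8%), against 10.7% of 27305 promoters in the table and 20.4% of those of 8884 tested genes. The YY1 motif, 10 letters around its ATGG core, was in 12 of 67 (17.9%), against 1.28% of all promoters and 3.02% of those of tested genes. The NRF1 motif, with its sixth letter left free, was in 8 of 67 (11.9%), against 6.28% and 12.7%. Its full palindrome, which every count of the freer form includes, was in MRPL17 alone, where capitals show it. Members with the ETS letters had a median difference of -0.15 at 24 h and those without them one of -0.16. Of the genes printed above, MRPL16 also holds ETS letters on the minus strand across its start site, and MRPL22 and MRPS10 hold YY1 letters just after theirs.

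Between 12 and 48 h in culture most members moved down, under both treatments alike. At 48 h compared with 12 h, 55 of 75 genes were lower in CsA cells, with a median of -0.25, and 63 of 75 in control cells, with a median of -0.26. The medians of all genes tested were -0.0054 in CsA cells and -0.0067 in control cells. In CsA cells 20 members fell and 4 rose, against 16.2% of all genes that fell and 16.3% that rose. In control cells 14 fell and 2 rose, against 9.37% of all genes that fell and 8.48% that rose. Single arrays weighed on these counts: without replicate 3 of the 12 h CsA arrays 9 members fell in CsA cells, and without replicate 2 of the 48 h CsA arrays 10. Without the control arrays of the same times and numbers, 6 and 6 fell in control cells. Without all arrays of 1 replicate number the falls were 6, 9 and 20 in CsA cells (without replicates 1, 2 and 3) and 3, 1 and 18 in control cells.

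With the block, 30 members fell and 7 rose in CsA cells (24.4% of all genes fell and 24.4% rose), and 32 fell and 3 rose in control cells (18.7% fell and 18% rose). The 26 genes that fell under both treatments made up 86.7% of those in CsA cells and 81.2% of those in control cells. The same overlap was not counted over all genes, so it cannot be called particular to the members. The control count with the block was 21 without replicate 2 of the 12 h control arrays and 20 without replicate 3 of them, and the CsA rises numbered 4 without replicate 1 and 3 without replicate 2 of the 12 h CsA arrays. Most of the fall came between 24 and 48 h in control cells, with medians of -0.041 from 12 to 24 h and -0.22 from 24 to 48 h. In CsA cells the medians were -0.16 and -0.11, and 43 of 75 genes (57.3%) were lower at 24 h than at 12 h in all 3 same-numbered cultures, against 22.9% of all genes tested.

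The large subunit fell further than the small one. In CsA cells the median change from 12 to 48 h was -0.37 for large-subunit genes and -0.11 for small-subunit genes, a small-minus-large gap of 0.27. In control cells the medians were -0.32 and -0.12, a gap of 0.20. The gap was positive in every same-numbered set of cultures, at 0.19, 0.20 and 0.38 in CsA cells and 0.18, 0.14 and 0.21 in control cells. Its size is a description with no test, and without replicate 3 of the 12 h CsA arrays the gap in CsA cells was 0.14. Of the large-subunit genes, 17 of 48 fell in CsA cells and 10 of 48 in control cells; of the small-subunit genes, 3 of 27 and 4 of 27 did. Over all genes 16.2% fell in CsA cells and 9.37% in control cells. With the block 24 of 48 large-subunit genes fell under each treatment, and 6 of 27 small-subunit genes in CsA cells and 8 of 27 in control cells, against 24.4% and 18.7% of all genes.

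**Figure D4:**
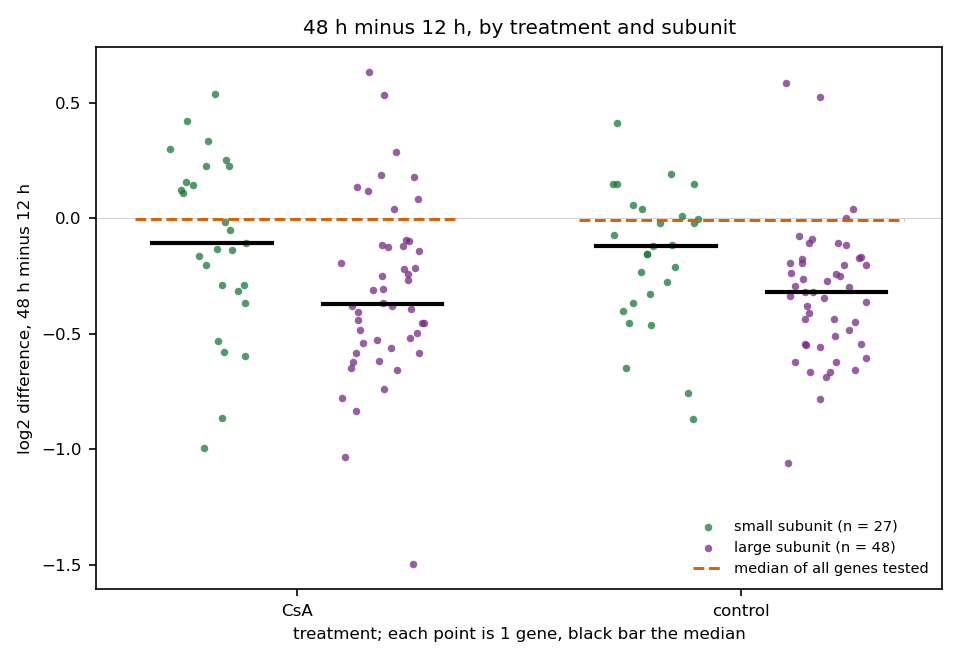
Each point is the log2 difference of 1 gene, 48 h minus 12 h, with CsA left of control and small-subunit genes left of large-subunit genes; black bars are medians and dashed lines the medians of all genes tested. Large-subunit medians (-0.37 and -0.32) lie below small-subunit medians (-0.11 and -0.12), and a few genes of each subunit lie above 0.

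MRPL16 had the largest fall of the members under both treatments. In CsA cells it read 7.37, 7.22 and 7.55 at 48 h, against 8.74, 8.91 and 8.99 at 12 h (difference -1.499 ± 0.137, limma, adjusted p = 1.82e-05). In control cells it read 7.72, 7.76 and 8.04 at 48 h, against 8.84, 8.94 and 8.93 at 12 h (-1.06 ± 0.14, adjusted p = 0.000409). No 48 h array reached the level of a 12 h array. MRPL50, found only in mitochondria, was next in CsA cells, at -1.03 ± 0.21 (adjusted p = 0.00195); in control cells it fell by 0.67 (adjusted p = 0.0408), a call lost in 10 of 21 fits that left arrays out, and in 2 with the block. MRPS28, a small-subunit protein, differed by -0.995 ± 0.13 in CsA cells (adjusted p = 0.000161) and -0.87 ± 0.13 in control cells (adjusted p = 0.00127, and 0.0582 without all arrays of replicate 2).

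Other members fell by less. MRPS7 fell by 0.53 in CsA cells and by 0.65 in control cells (adjusted p = 0.000888 and 0.000884), the control call being lost without all arrays of replicate 2 (0.0539). MRPS17 was called without the block in control cells (-0.76 ± 0.23, adjusted p = 0.0348) and not in CsA cells (-0.60 ± 0.23, adjusted p = 0.0593); in 6 of 21 fits that left arrays out the control call was lost. MRPL39 was called without the block in CsA cells (-0.78 ± 0.24, adjusted p = 0.0221) and not in control cells (-0.69 ± 0.24, adjusted p = 0.059); its CsA call was lost in 5 of 21 such fits. With the block both genes fell under both treatments. MRPL4, from the tunnel wall, passed only with the block, at -0.66 ± 0.29 in CsA cells (adjusted p = 0.00282) and -0.78 ± 0.29 in control cells (adjusted p = 0.00161).

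Only a few members rose. MRPL10, which holds the stalk to the ribosome, read 10.70, 10.74 and 10.81 at 48 h in CsA cells, against 10.13, 10.09 and 10.12 at 12 h (0.63 ± 0.14, adjusted p = 0.0038). In control cells it read 10.57, 10.76 and 10.61 at 48 h, against 10.01, 10.16 and 10.01 at 12 h (0.59 ± 0.14, adjusted p = 0.0134). Its partner in the stalk, MRPL12, which contacts translation factors, fell by 0.59 in CsA cells (adjusted p = 0.0361, lost in 7 of 21 fits that left arrays out) and, with the block, by 0.56 in control cells (adjusted p = 0.0022). MRPS18B rose by 0.54 ± 0.10 in CsA cells (adjusted p = 0.000997) and 0.41 ± 0.10 in control cells (adjusted p = 0.012). MRPL45, which ties the tunnel exit to the inner membrane, rose by 0.54 ± 0.20 in CsA cells (adjusted p = 0.0493, lost in 13 of 21 such fits) and, with the block, by 0.52 ± 0.20 in control cells (adjusted p = 0.00173, lost in 1). The control calls of MRPL10 and MRPS18B were lost in 3 and 2 of these fits (adjusted p up to 0.176 for MRPL10 and 0.231 for MRPS18B), and each in 1 with the block, without replicate 1 (0.0522 for MRPL10 and 0.114 for MRPS18B). Their CsA calls were lost in 1 fit each, MRPL10 without replicate 1 (0.0815) and MRPS18B without replicate 2 (0.0717).

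The ACTB 3-prime minus 5-prime difference averaged 0.92 ± 0.20 at 48 h and 0.87 ± 0.11 at 12 h over both treatments (SD, n = 6 each), and that of GAPDH -0.11 ± 0.08 at 48 h and -0.12 ± 0.02 at 12 h. Its part in the changes over time was not tested.

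Replicate numbers differed in the members about as often as in other genes. In that comparison 39 of 75 members passed (moderated F with a term per group), a share near the 46.7% of all genes; they were 30 of 48 large-subunit genes and 9 of 27 small-subunit genes. Replicate 3 minus the mean of replicates 1 and 2 had a median of 0.24 in the large subunit, 0.092 in the small subunit and -0.015 over all genes tested. By group the large-subunit median was 0.40, 0.21 and 0.012 in CsA cells and 0.29, 0.28 and 0.18 in control cells at 12, 24 and 48 h. CsA cells at 48 h were thus the group in which replicate 3 stood least apart.

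**Figure D5:**
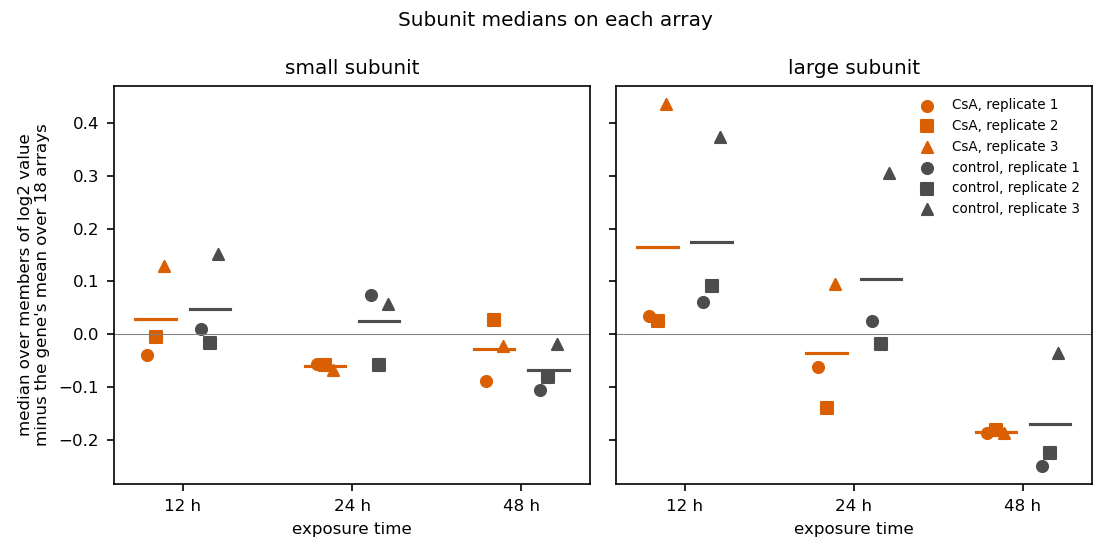
Each marker is 1 array's median, over small-subunit genes (left panel) or large-subunit genes (right panel), of the log2 value minus the gene's mean over 18 arrays, by time with CsA left of control; bars are means of 3 arrays. Replicate 3 (triangles) is highest in the large subunit at 12 and 24 h, and all 6 arrays of 48 h lie below 0 there.

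MRPL33, a small protein of the bacterial L33 family, differed most between replicate numbers, with replicate 3 higher by 0.69. In CsA cells at 12 h it read 10.50, 10.80 and 11.63 in replicates 1, 2 and 3, and in control cells 10.77, 10.83 and 11.71. At 48 h the numbers were close together, at 10.51, 10.65 and 10.63 in CsA cells and 10.71, 10.72 and 10.92 in control cells. MRPL1 and MRPL4 were higher in replicate 3 by 0.57 and 0.53. MRPL45, MRPL30 and MRPL24 were lower in replicate 3, by -0.37, -0.30 and -0.28 as replicate 3 minus the others. The ACTB 3-prime minus 5-prime difference averaged 0.80 ± 0.03 in replicate 3 and 0.94 ± 0.13 in replicate 2 (SD, n = 6 each); its part was not tested.

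Other genes of mitochondrial translation gave few calls between CsA and control cells. A list of 7 tested ribosome proteins with other symbols, which includes the members MRPL57 and MRPL58, had a median of 0.19 at 48 h. None of the 7 was called, with or without the block, where 4.8% of all genes rose and 5.96% fell with it. Of the 12 translation factors tested, 8 were higher in CsA cells at 48 h with a median of 0.14, and none passed the test with or without the block. With the block 1 had an unadjusted limma p under 0.05, as did 3014 of all 10717 genes. MTIF3, an initiation factor, read 8.42, 8.90 and 8.60 in CsA cells, against 8.35, 8.25 and 8.36 in control cells (0.32 ± 0.16, adjusted p = 0.0982 with the block). Over culture time these factors had a median change of 0.23 in CsA cells and 0.020 in control cells, where the ribosomal proteins had -0.25 and -0.26. From 12 to 48 h 3 of the 12 rose and 1 fell in CsA cells (5 and 2 with the block). Of all genes 16.3% rose and 16.2% fell there (24.4% and 24.4% with the block). In control cells 2 of the 12 rose and 1 fell (2 and 3 with the block), where 8.48% of all genes rose and 9.37% fell (18% and 18.7% with the block).

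Of 25 assembly and rRNA modification factors, 1 rose and 1 fell at 48 h with the block, and none did without it. Without the block 3 had an unadjusted limma p under 0.05, as did 1719 of all 10717 genes. With the block 4.8% of all genes rose and 5.96% fell, so these counts are near the share of all genes. MPV17L2, which helps assemble the ribosome's subunits, read 7.12, 7.90 and 7.80 in CsA cells, against 6.52, 6.90 and 7.55 in control cells (0.62 ± 0.27, adjusted p = 0.0327 with the block). MTERF3, a regulator of mitochondrial transcription and ribosome assembly, fell by 0.41 (adjusted p = 0.0314 with the block). Over culture time 4 of the 25 rose and 4 fell in CsA cells (5 and 6 with the block). Of all genes 16.3% rose and 16.2% fell there (24.4% and 24.4% with the block). In control cells 2 of the 25 rose and 4 fell (3 and 6 with the block), where 8.48% of all genes rose and 9.37% fell (18% and 18.7% with the block). The 17 genes of mitochondrial DNA and RNA upkeep gave no call at 48 h, when 12 of them were higher in CsA cells, with a median of 0.052. SUPV3L1 differed by 0.42 ± 0.29, and TFAM, which packages mitochondrial DNA, by -0.26 ± 0.18. Of these 17 genes 14 were lower at 24 h, with a median of -0.095. From 12 to 48 h their median change was -0.19 in CsA cells and -0.25 in control cells. The ribosomal proteins had -0.25 and -0.26. In CsA cells 3 of the 17 fell and 1 rose (6 and 2 with the block). In control cells 2 fell and 1 rose (7 and 1 with the block). The shares of all genes are those given above for the assembly factors. Those 25 had median changes of -0.0091 in CsA cells and -0.11 in control cells.

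Of 9 regulators of nuclear genes for mitochondria, PPARGC1A alone was called at 48 h with the block. It fell, as did 5.96% of all genes with the block. This coactivator read 7.30, 6.43 and 5.49 in CsA cells, against 8.39, 7.26 and 6.93 in control cells (-1.12 ± 0.51, adjusted p = 0.012 with the block and 0.301 without it). It was lower in CsA cells within every pair, although the groups overlapped. MYC read 11.91, 11.26 and 11.37 in CsA cells, against 12.01, 11.85 and 12.00 in control cells (-0.44 ± 0.14, adjusted p = 0.0628 with the block).

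The 60 cytosolic ribosomal protein genes moved differently from the mitochondrial ones over time. Their median change from 12 to 48 h was 0.11 in CsA cells, with 51 of 60 higher, and 0.066 in control cells, with 47 of 60 higher. At 48 h 1 of 60 rose relative to control with the block and 0 without it, against 4.8% and 0.215% of all genes. The gene called was RPL36AL (0.38 ± 0.10, limma, adjusted p = 0.0244 with the block).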

How the data were processed

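RNA of 18 HK-2 cultures was measured on Affymetrix arrays. The authors' deposited values, made with GCRMA per the submitters' processing notes, were taken as log2 values from their range, since the log base and the arrays normalized together are not given in the sources used here. Symbols came from the platform annotation and were checked against RefSeq, which changed 0. For each gene the brightest probe set with 1 symbol and a highest group mean of at least 4 was used.

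Differences were fitted with limma 3.58.1 in R 4.3.3 on all 18 arrays, with a term per group and 12 residual degrees of freedom (10 with the replicate block), and Benjamini-Hochberg adjustment at 0.05. The fit was tested on simulated data. Members and lists were chosen with earlier results of these data known, and roles were assigned after values had been seen. Same-numbered arrays deviated together (lowest correlation across genes 0.277), and 18 of 18 arrays were closest to a same-numbered array outside their own group, so the numbers were taken as pairs from the data, not the labels. Named members were drawn from those called, those with groups apart, the extremes of each subunit, the brightest and dimmest, and a set by role. Not every member of these kinds is printed. Python 3.11.15, pandas 2.3.3 and matplotlib 3.10.9 served for promoters and figures. Precision is limited by 3 arrays per group.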

Additional observations from a re-analysis of the deposited data

How the results depend on the processing

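Quantile normalization, centring on the array median, a level minimum of 6, a floor at 4 and a trended robust fit left every count of members called within 1.5 times its value and moved no median or gap by more than the spread between replicate pairs. With the replicate block the members called numbered 5 at 48 h and 4 in the average, against 1 and 1 without it. On the 6 arrays of 48 h alone 1 was called. The moderated F over time called 31 members in control arrays and 38 in CsA arrays with the block, and 12 and 16 without it. Of all 10717 genes tested it called 3594 in control arrays and 5070 in CsA arrays with the block, and 1517 and 3031 without it. With no level filter, 1 member (MRPL27) was called at 24 h with the block. Averaging probe sets left 0 at 48 h and 0 in the average without the block, and 5 and 3 with it. Leaving out probe sets marked as matching several transcripts kept 39 of the 75 members and 0 calls at 48 h and 0 in the average, with or without the block, 6 in CsA arrays and 4 in control arrays over time (13 and 9 with the block), 17 between replicate numbers, and a control gap from 12 to 48 h of 0.232; fewer genes were tested. With MRPS18A and MRPS30 in the large subunit that gap was 0.154.

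Leaving out 1 array or 1 replicate number gave 0 to 1 members at 48 h (0 to 8 with the block), 0 to 1 in the average (0 to 5 with the block), 4 to 19 in CsA arrays over time (22 to 40 with the block) and 0 to 15 in control arrays over time (15 to 33 with the block). The median at 12 h lay between -0.125 and 0.0702, and that at 24 h between -0.198 and -0.0522. The gap lay between -0.0224 and 0.114 at 24 h and between 0.0423 and 0.0977 at 48 h; from 12 to 48 h it lay between 0.144 and 0.352 in CsA cells and 0.132 and 0.269 in control cells.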
